A study of Homo sapiens with 4 samples.

Results

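The D-type cyclins and the inhibitors of cyclin-dependent kinases (CDKs) were examined as a set of 10 genes, chosen by symbol for their role, out of 20149 protein-coding genes in the annotation. They comprised 3 D-type cyclins (CCND1, CCND2 and CCND3), 3 inhibitors of the CIP/KIP family (CDKN1A, CDKN1B and CDKN1C) and 4 inhibitors of the INK4 family (CDKN2A, CDKN2B, CDKN2C and CDKN2D). The members were the peaks within each gene body and 25 kb on each side, called the window below, in hg19. H3K27ac, a histone acetylation mark found at active promoters and enhancers, had been mapped by ChIP-seq in an erythroleukaemia line of human origin, K562. One library came from cells with TFAM hairpin 1, another from cells with TFAM hairpin 2, and the last from cells with a non-targeting control shRNA. All 3 came from the same cell line under the same culture conditions, with 1 library and 1 peak list per group. TFAM packages mitochondrial DNA and starts its transcription, and its level was not measured by these files.

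D-type cyclins are the regulatory subunits that CDK4 and CDK6 need in order to phosphorylate the retinoblastoma protein, which releases E2F factors and lets a cell pass from G1 into S phase. INK4 proteins bind CDK4 and CDK6 and keep D-type cyclins off them, whereas CIP/KIP proteins bind cyclin-CDK complexes more broadly. In the red cell lineage of mice, cyclin D3 is known for setting the number of divisions before terminal differentiation, and p27 (CDKN1B) and p18 (CDKN2C) for the exit from the cell cycle. K562 cells lack the CDKN2A and CDKN2B segment of chromosome 9 and functional p53, the activator of CDKN1A. The genes CDKN2A and CDKN2B therefore served as an empty control.

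The lists held 23819 peaks in hairpin 1, 27007 in hairpin 2 and 23413 in the control, over 54.4, 61.9 and 52.1 Mb. The sequencing depth of each library is unknown. With 1 library per group there is no spread between replicates and no p-value, and every comparison below is between libraries. The median window of the 15374 coding genes with control coverage was covered 1.06 times as far in hairpin 1 as in the control (a median log2 ratio of 0.10) and 1.16 times as far in hairpin 2 (log2 0.22). The ratios of the members are read against these shifts. Of 11 markers of the K562 erythroid state, 5 had a promoter peak in all lists and 5 in none (HBE1, HBG1, HBG2, GATA1 and KLF1, all with peaks elsewhere in their windows). Of 11 markers of T cells, B cells, monocytes and megakaryocytes, 0 had one in all lists and 8 in none.

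Across the 10 genes, the windows held 22 peaks in hairpin 1, 23 in hairpin 2 and 26 in the control. Joining peaks that shared 1 bp or more gave 29 regions, 19 of which had a peak in every list. Gained describes a region listed for hairpin 1 and hairpin 2 but not for the control, and lost one listed for the control only. There were 0 gained and 3 lost regions, and 2 of the lost ones lay in CCND3. The remaining 7 regions consisted of 1 absent only from hairpin 1, 3 absent only from hairpin 2 and 3 present in hairpin 2 alone. A gained region fell in the windows of 0 of the 10 genes and a lost one in those of 2 (CCND3 and CDKN1B). Among all coding genes, 12.7% of windows held a gained region and 10.7% a lost one. A canonical promoter peak in every list was found in 7 of the 10 genes, against 50.3% of all coding genes. That count was 2 with the higher-scoring 50% of each list and 4 with peaks up to 5 kb wide.

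Of the 29 regions, 8 overlapped the canonical promoter of a member (the canonical start site with 1 kb on each side). Another 3 overlapped other annotated starts of a member, each of them shared with a neighbour (TAF8 beside CCND3, GPR19 beside CDKN1B and FAF1 beside CDKN2C). A further 7 overlapped the start of another coding gene alone, 1 the start of the lncRNA KCNQ1DN, and 10 no start of a coding gene or named lncRNA. A window therefore also counts H3K27ac that belongs to its neighbours.

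**Figure D1:**
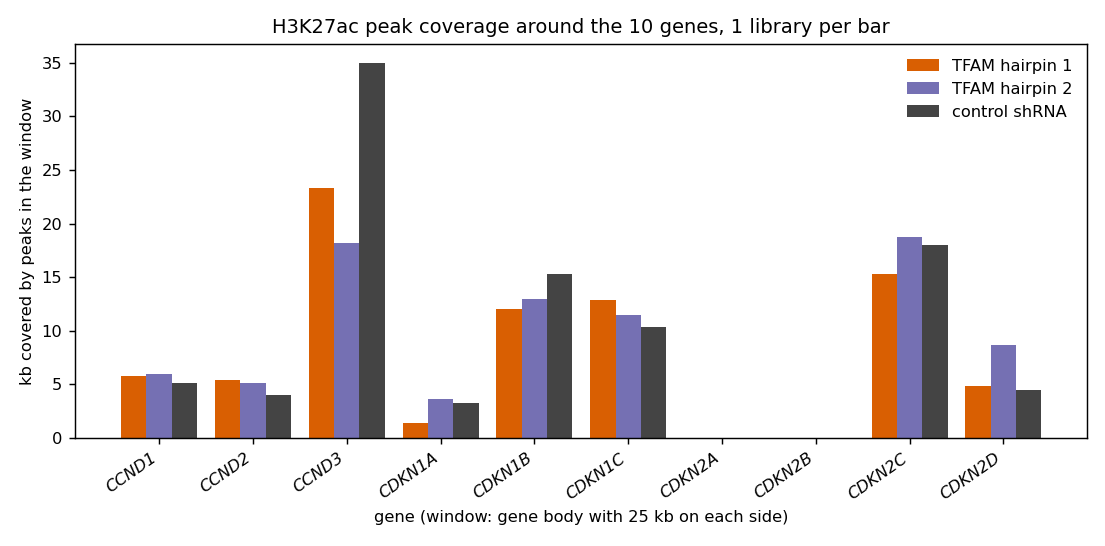
Sequence covered by H3K27ac peaks (kb, linear axis from 0) in the window of each of the 10 genes, with 1 bar per library and no error bars because each bar is 1 library. CCND3 stands at 23327 bp in hairpin 1, 18212 bp in hairpin 2 and 35002 bp in the control, and CDKN2A and CDKN2B are at 0 in all 3.

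Promoter sequences are shown for 5 starts because their peaks differed between lists or because they lie in the deleted segment. Each runs 5′ to 3′ on the gene's own strand, from 250 bases before the start through the first 50 bases of the transcript, and was read from GRCh37. Capitals mark GC boxes (GGGCGG or its reverse complement CCGCCC), the binding motif of SP1-type factors.
CCND1, chr11:69455674-69455973, plus strand: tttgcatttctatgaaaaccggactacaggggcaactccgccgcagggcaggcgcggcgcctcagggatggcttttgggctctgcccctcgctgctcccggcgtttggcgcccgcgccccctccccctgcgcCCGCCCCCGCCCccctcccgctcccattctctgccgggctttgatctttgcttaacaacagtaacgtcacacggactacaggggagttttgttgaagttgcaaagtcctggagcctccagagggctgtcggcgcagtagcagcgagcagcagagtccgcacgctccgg
CCND3, canonical start, chr6:41909497-41909796, minus strand: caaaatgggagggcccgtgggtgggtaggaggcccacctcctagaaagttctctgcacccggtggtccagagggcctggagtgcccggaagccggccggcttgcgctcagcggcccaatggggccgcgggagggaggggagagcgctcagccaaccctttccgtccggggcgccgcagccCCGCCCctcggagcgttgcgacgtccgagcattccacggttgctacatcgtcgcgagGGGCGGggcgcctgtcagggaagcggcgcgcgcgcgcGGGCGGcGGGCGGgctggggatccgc
CCND3, distal start, chr6:42016379-42016678, minus strand: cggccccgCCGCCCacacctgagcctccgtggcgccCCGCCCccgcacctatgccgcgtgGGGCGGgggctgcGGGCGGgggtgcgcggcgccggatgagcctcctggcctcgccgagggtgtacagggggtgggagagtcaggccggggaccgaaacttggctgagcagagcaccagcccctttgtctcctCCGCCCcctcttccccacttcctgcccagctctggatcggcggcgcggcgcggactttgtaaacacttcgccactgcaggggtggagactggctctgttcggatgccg
CDKN1A, chr6:36646241-36646540, plus strand: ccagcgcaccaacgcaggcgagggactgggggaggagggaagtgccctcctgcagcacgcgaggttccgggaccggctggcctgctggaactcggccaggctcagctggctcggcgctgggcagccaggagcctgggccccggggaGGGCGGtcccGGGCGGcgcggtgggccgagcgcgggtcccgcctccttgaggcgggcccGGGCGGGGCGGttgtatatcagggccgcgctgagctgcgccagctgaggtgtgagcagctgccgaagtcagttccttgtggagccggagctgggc
CDKN2A, chr9:21974807-21975106, minus strand: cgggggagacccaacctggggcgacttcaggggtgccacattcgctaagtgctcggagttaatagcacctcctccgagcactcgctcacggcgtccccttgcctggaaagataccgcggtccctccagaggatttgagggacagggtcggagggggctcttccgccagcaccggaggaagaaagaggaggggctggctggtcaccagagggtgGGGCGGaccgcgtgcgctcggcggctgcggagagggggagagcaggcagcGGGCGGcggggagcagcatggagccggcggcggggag

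Counted on both strands, the printed stretches held 2 GC boxes in CCND1, 4 at the canonical and 5 at the distal start of CCND3, 4 in CDKN1A and 2 in CDKN2A. At least 1 was found in 60.9% of 20144 coding promoters of the same length. The other motifs are given for 9 of the members. An E2F consensus (TTTCCCGC, TTTCGCGC, TTTGCCGC or TTTGGCGC) was found in 1 member, CCND1, as TTTGGCGC at -147 to -140 from the start, against 4.33% of all promoters. The other motifs searched were the CCAAT box (CCAAT; 5 members, 35.95% of all promoters), the E-box (CACGTG; 1 member, CDKN2C, and 8.74%), the TATA box (TATAAA; 1 member, CDKN1C, and 9.80%) and GATA motifs (AGATAA or TGATAA; 0 members, 11.5%). Matches that overlapped those of another motif were kept, and a match describes letters, not binding. The 9 promoters ranged in G+C content between 49.3% in CDKN2C and 77.0% in CDKN1C, with a median of 63.7% over all coding promoters.

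The windows of the 3 D-type cyclins were covered for 34488 bp in hairpin 1, 29354 bp in hairpin 2 and 44067 bp in the control, in 9, 9 and 12 peaks. Of their 14 regions, 6 were in every list. CCND3 (chr6:41902672-42018095, minus strand), which encodes cyclin D3, differed most in base pairs of covered sequence. Its window (chr6:41877672-42043095) was covered for 23327 bp in hairpin 1, 18212 bp in hairpin 2 and 35002 bp in the control, in 6, 5 and 9 peaks. Both hairpins were below the control, at 0.666 and 0.520 times its value, and each hairpin lacked some peaks that the other had. Among all coding genes, its covered share of the window stood at percentile 87.7 in hairpin 1, 79.8 in hairpin 2 and 97.6 in the control. Of its 43767 bp covered in any list, 13999 bp were covered in the control alone and 2646 bp in both hairpins but not the control.

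The canonical CCND3 promoter, the start of the shorter transcripts, was one of the lost regions (chr6:41905217-41911840). The control peak spanned 6624 bp, reaching from -2294 to 4329 bp around the start, and neither hairpin list had a peak there. It stood at score percentile 49.2 of the control list, where the percentile is the share of that list with the same or a lower score. All 7 annotated starts in this cluster lay within 1 kb of the control peak and of no hairpin peak. The other lost region (chr6:41994469-42000711) covered 6243 bp, from -91165 to -84923 bp relative to the canonical start, inside the longer transcripts, at score percentile 54.7. Both lost regions were wide for their list, since 98.8% of control peaks were narrower than the first and 98.2% narrower than the second.

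The distal cluster of 11 CCND3 starts, used by 16 annotated transcripts and divergent from TAF8, a subunit of the general transcription factor TFIID, kept its peak in hairpin 1. The peak was 3742 bp wide in hairpin 1, absent in hairpin 2 and 3614 bp wide in the control (chr6:42015721-42019462). An intronic region just inside it (chr6:42005242-42010865) was covered for 5624 bp in hairpin 1, 0 bp in hairpin 2 and 2530 bp in the control. Hairpin 2 was the list without a peak at both.

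In the middle of the gene, a pair of regions (chr6:41983282-41987452 and chr6:41976397-41979969) was covered in every list. The first spanned 4058 bp in hairpin 1, 4134 bp in hairpin 2 and 3281 bp in the control, and the second 2978, 3573 and 2325 bp in the same order. These shared regions were wider in both hairpins than in the control, unlike the total of the window. Between them and the canonical promoter the hairpins differed. One intronic region (chr6:41933510-41935910) had 2122 bp in hairpin 1, 0 bp in hairpin 2 and 2359 bp in the control, and its neighbour (chr6:41926268-41931673) had 0, 4553 and 4341 bp. A small region (chr6:41964724-41965749), 1026 bp wide, was listed in hairpin 2 alone.

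Beyond the 3′ end of CCND3, the shared promoter of MED20, a Mediator subunit, and BYSL, a ribosome assembly factor, lay inside the window and was covered for 4803 bp in hairpin 1, 4926 bp in hairpin 2 and 3685 bp in the control. This neighbour was wider in both hairpins, unlike the total of the window.

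**Figure D2:**
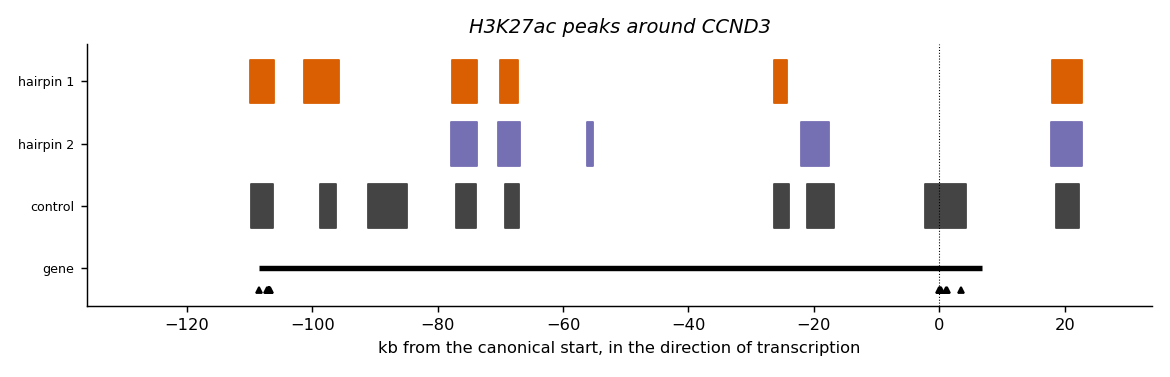
Peaks of each list around CCND3, drawn to scale as distance in kb from the canonical start (dotted line), with upstream to the left; the black bar is the gene body and triangles are annotated starts. The control peaks over the canonical start and at -91165 to -84923 bp have no counterpart in either hairpin.

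The share of peaks missing from the other lists differed with peak width, which touches the CCND3 calls. The widest peak of any list measured 8841 bp. Of the 282 control peaks wider than 6 kb that touched a coding promoter, 20 had no peak in either hairpin, or 7.09% (exact 95% interval 4.39 to 10.7). Of the 4879 such control peaks between 2 and 4 kb, 22 had none, or 0.451% (0.283 to 0.682). The same upturn was seen for promoter peaks over 6 kb in the hairpin lists, with 4.17% in hairpin 1 and 2.22% in hairpin 2 lacking a peak in either other list. Whether the CCND3 promoter was unmarked in the hairpin cells or was left out of their lists was not tested.

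**Figure D3:**
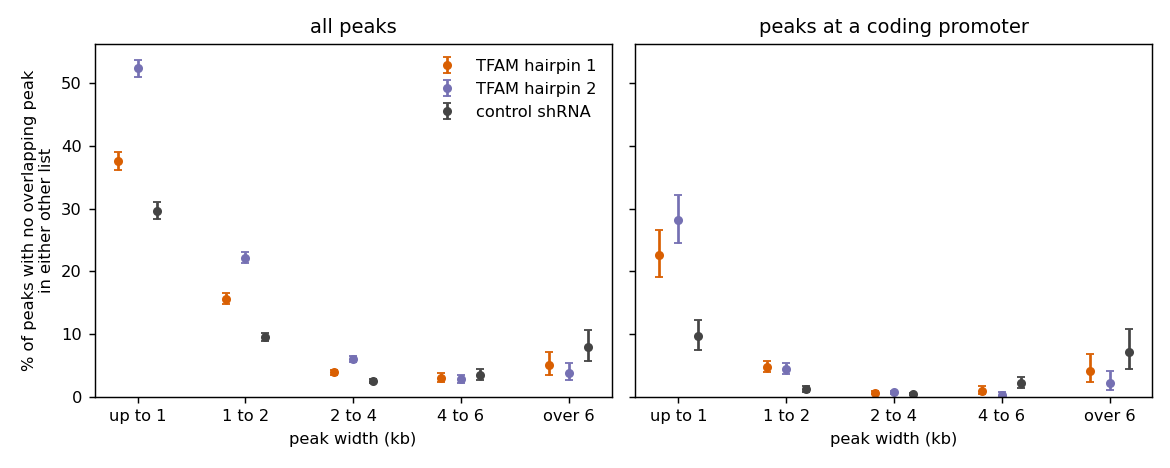
Percent of peaks with no overlapping peak in either of the other 2 lists, by peak width in kb, for all peaks and for peaks at a coding promoter; points are 1 library each and bars are exact 95% binomial intervals for counting error. In each list the percent is lowest at middle widths and higher again over 6 kb, where it reaches 7.09% for control promoter peaks.

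CCND2, the cyclin D2 gene (chr12:4378937-4414519, plus strand), showed a peak at its promoter in every list, but placed differently. The peak reached from -3394 to 1962 bp around the canonical start in hairpin 1, from -1704 to 2790 bp in hairpin 2 and from -4063 to -107 bp in the control. The start itself was thus covered in both hairpins and not in the control. The peak measured 5357, 4495 and 3957 bp, in the order hairpin 1, hairpin 2 and control, and 669 bp were covered in the control alone against 2069 bp in both hairpins and not the control. The control peak scored low, at percentile 5.3 of its list, whereas those of hairpin 1 and hairpin 2 stood at 45.4 and 46.5 of theirs. Another annotated start of CCND2 inside the gene (position 4384715) lay within 1 kb of a peak in both hairpins and of none in the control. The most upstream start (position 4378937) went the other way, with 404 bp covered within 1 kb in hairpin 1, 0 bp in hairpin 2 and 1073 bp in the control. Hairpin 2 alone had a further small peak of 644 bp at the promoter of TIGAR, a regulator of glycolysis (chr12:4430338-4430981).

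CCND1, the cyclin D1 gene (chr11:69455924-69469242, plus strand), had a compact peak over its start and first exon in all lists, 3137 bp wide in hairpin 1, 2877 bp in hairpin 2 and 2563 bp in the control. It began at -4 bp from the start in hairpin 1, at -247 bp in hairpin 2 and at 19 bp in the control. The start base was therefore also covered in the hairpins and not in the control, though hairpin 1 and the control lay close to the start on either side. The promoter peak scored at percentile 62.3 in hairpin 1, 52.9 in hairpin 2 and 81.4 in the control, so it ranked lower in both hairpins while being wider there. The other peak in its window was the promoter of LTO1, with 2667, 3126 and 2545 bp in the order hairpin 1, hairpin 2 and control.

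Over the whole set, the start base was covered in both hairpins and not in the control in 2 of 10 genes (CCND1 and CCND2), against 1.7% of all coding genes, and in the control alone in 1 (CCND3), against 0.804%. A promoter peak was gained in 0 of 10, against 1.53%, and lost in 1 of 10, against 0.829%. Coverage of the start base was added to the planned promoter measure. At CCND1 it turned on peak edges at -4 bp in hairpin 1 and 19 bp in the control. With so few genes and 1 library per group, these counts describe the members and call nothing particular to them.

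The CIP/KIP inhibitors kept their promoter peaks in all libraries. Their windows together were covered for 26342 bp in hairpin 1, 28048 bp in hairpin 2 and 28893 bp in the control, with 8 of 9 regions in every list. CDKN1A (chr6:36644237-36655114, plus strand), which encodes p21, had a single peak in its window (chr6:36645716-36649407). It was 1423 bp wide in hairpin 1, 3643 bp in hairpin 2 and 3296 bp in the control. Hairpin 1 was low, at 0.432 times the control, and hairpin 2 was close to the control, at 1.11 times. Its score percentile was 44.7 in hairpin 1, 85.6 in hairpin 2 and 77.8 in the control, in the same order as the widths. The hairpin 1 peak began 59 bp after the canonical start, while that of hairpin 2 began at -775 bp and that of the control at -379 bp. The hairpins therefore went apart at this gene, and 3 annotated starts further upstream had no peak within 1 kb in any list.

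CDKN1B (chr12:12838432-12875303, plus strand), which encodes p27, carried 2 wide blocks of H3K27ac, one over its promoter and one over its 3′ end and the sequence beyond. The promoter block (chr12:12867070-12873438) measured 5041 bp in hairpin 1, 6262 bp in hairpin 2 and 6369 bp in the control. The other block, at an annotated start of the neighbour APOLD1 (chr12:12874131-12880385), measured 5066, 5465 and 6255 bp in the same order. Both were narrower in the hairpins, and the window total was 12067 bp in hairpin 1, 12966 bp in hairpin 2 and 15258 bp in the control, or 0.791 and 0.850 times the control. By score the promoter block ranked higher in the hairpins, at percentile 66.9 in hairpin 1, 67.8 in hairpin 2 and 43.8 in the control. Upstream, the start that CDKN1B shares with GPR19, an orphan receptor gene, was covered for 1960, 1239 and 2040 bp. The remaining lost region lay in an intron of APOLD1 (chr12:12887617-12888210). It was 594 bp wide and at score percentile 1.9 of the control list. Narrow control peaks were often missing elsewhere: of all control peaks up to 1 kb wide, 29.6% (28.3 to 31.0) had no peak in either hairpin.

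CDKN1C (chr11:2904443-2907005, minus strand), which encodes p57 and is imprinted, had the same 4 regions in every list. Its window was covered for 12852 bp in hairpin 1, 11439 bp in hairpin 2 and 10339 bp in the control. The promoter peak measured 3489, 2228 and 3253 bp, and was thus narrowest in hairpin 2. An intergenic region upstream of the start (chr11:2910383-2914868) was wider in both hairpins, with 4486 bp in hairpin 1, 3972 bp in hairpin 2 and 3153 bp in the control. The peak at SLC22A18, another gene of this imprinted domain, spanned 2182 bp in hairpin 1, 2597 bp in hairpin 2 and 1778 bp in the control, and that at KCNQ1DN 2695, 2642 and 2155 bp. All regions of the window but the promoter were therefore wider in both hairpins.

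The INK4 windows were covered for 20058 bp in hairpin 1, 27398 bp in hairpin 2 and 22507 bp in the control, with 5 of 6 regions in every list. CDKN2C (chr1:51426417-51440306, plus strand) was densely marked, with the largest covered share of any member in hairpin 2 and the control, while CDKN1C had slightly more in hairpin 1, at 24.5%. The peaks covered 23.9% of its window in hairpin 1, 29.4% in hairpin 2 and 28.2% in the control, against medians of 3.76%, 4.27% and 3.61% over all coding genes. CDKN2C encodes p18 and had 3 wide regions in every list. The one over its canonical promoter (chr1:51432045-51440316) measured 6226 bp in hairpin 1, 8272 bp in hairpin 2 and 6965 bp in the control. The one beyond its 3′ end (chr1:51441296-51447862) measured 4328, 5773 and 6567 bp, while its score percentile was 97.2 in hairpin 1, 85.9 in hairpin 2 and 56.5 in the control. The one shared with the FAF1 promoter measured 4689, 4728 and 4473 bp. The window ratio was 0.847 in hairpin 1 and 1.04 in hairpin 2, so the hairpins lay on either side of the control. Its promoter had the lowest G+C content of the 9 given above.

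CDKN2D (chr19:10677136-10679735, minus strand), which encodes p19, had a promoter peak of 2783 bp in hairpin 1, 2939 bp in hairpin 2 and 2195 bp in the control. Its score percentile was 57.3 in hairpin 1, 45.6 in hairpin 2 and 88.5 in the control, so that it too ranked lower in the hairpins while being wider. In hairpin 2 alone a further peak of 3284 bp lay directly downstream of it (chr19:10675087-10678370). This peak overlapped the promoter of KRI1 and also the 3′ part of the CDKN2D gene body. The peak at ATG4D, an autophagy protease gene at the edge of the window, measured 2032, 2402 and 2307 bp. The window held 4815 bp in hairpin 1, 8625 bp in hairpin 2 and 4502 bp in the control. Hairpin 2 was 1.92 times the control and hairpin 1 was 1.07 times. The difference came mostly from the peak over the KRI1 promoter and the 3′ part of CDKN2D.

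**Figure D4:**
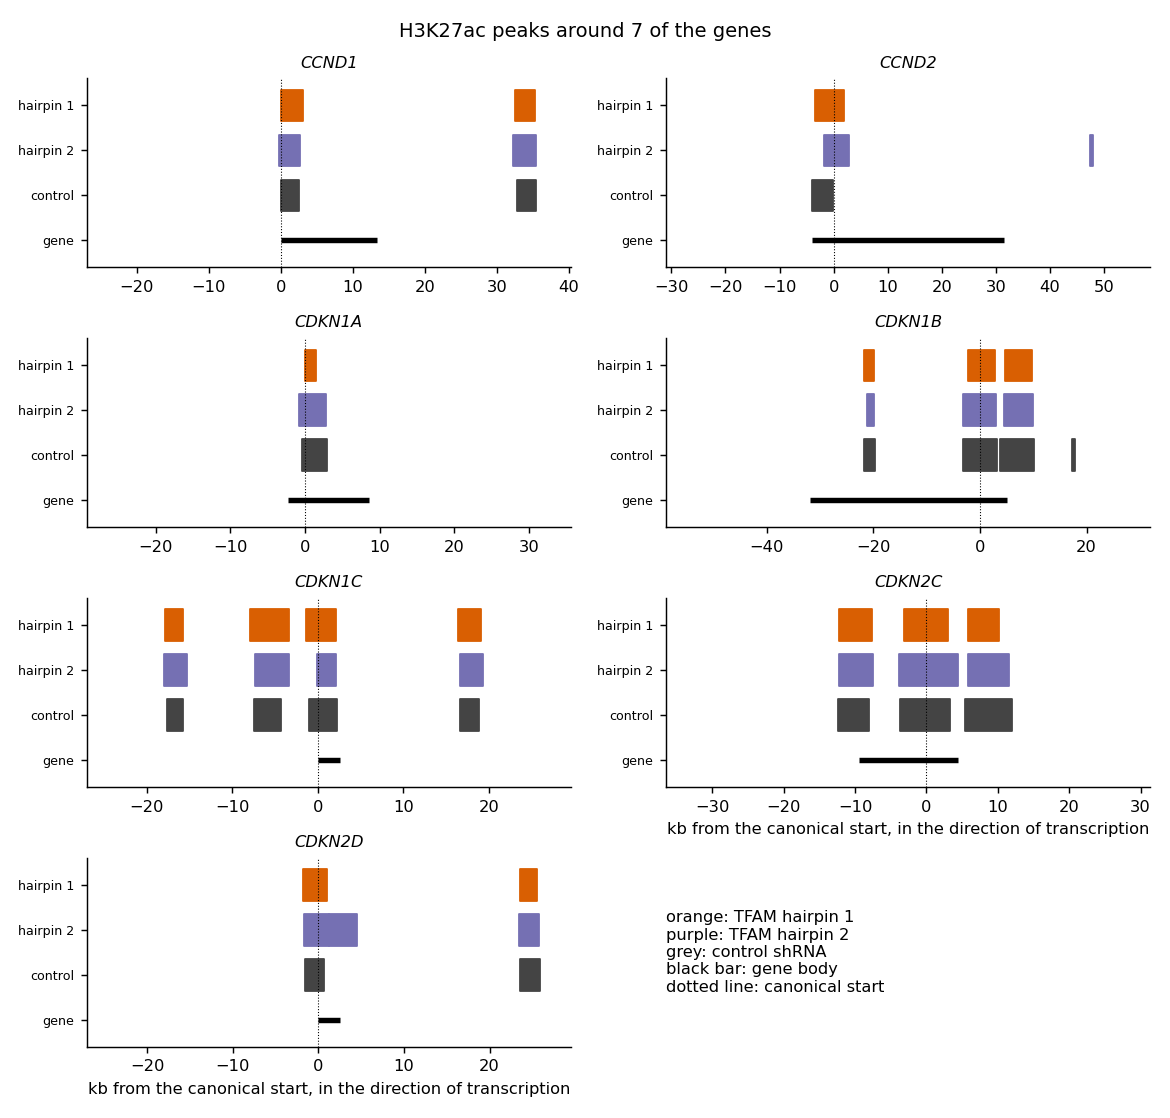
Peaks of each list around 7 of the genes, drawn to scale as distance in kb from the canonical start (dotted line) in the direction of transcription, with the gene body in black. In CCND2 the control peak ends before the start while both hairpin peaks cross it, in CDKN1A the hairpin 1 peak is the short one, and in CDKN2D the joined block of hairpin 2 is a pair of peaks with a narrow gap.

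With a fold of 1.5 in covered sequence as the threshold, CDKN1A (0.432) and CCND3 (0.666, just past it) were lower in hairpin 1 among the 8 genes with control coverage, and 0 were higher. In hairpin 2, CCND3 was lower and CDKN2D higher. Among all coding genes 12.8% were lower and 15.5% higher in hairpin 1, and 7.34% were lower and 22.3% higher in hairpin 2. Being lower in both hairpins held for 1 of the 8 genes, CCND3, against 3.55% of coding genes. The median ratio of the 8 genes was 0.958 in hairpin 1 and 1.11 in hairpin 2, both below the medians of all genes. Summed over the windows, the set was covered for 80888 bp in hairpin 1, 84800 bp in hairpin 2 and 95467 bp in the control, or 0.847 and 0.888 times the control. Without CCND3 the ratios were 0.952 and 1.10, so the direction in hairpin 2 rested on CCND3.

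Base by base, the lists overlapped more at some members than others. Of the sequence covered in any list, 42.6% was covered in all 3 across the genome. The share was 76.7% at CCND1, 74.6% at CDKN2C, 73.97% at CDKN1B, 67.6% at CDKN1C and 48.6% at CDKN2D. It was 38.5% at CDKN1A, 21.3% at CCND2 and 20.8% at CCND3.

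CDKN2A (chr9:21967751-21995300, minus strand), which encodes p16 and ARF, and CDKN2B (chr9:22002902-22009304, minus strand), which encodes p15, had 0 peaks in their windows in each list. These were 2 of the 10 genes, against 19.2% of all coding genes. The nearest peaks lay at the promoters of FOCAD and CAAP1 in each list. The interval between them measured 6.21 Mb in hairpin 1, 6.20 Mb in hairpin 2 and 6.20 Mb in the control. Joined over the lists it ran on chromosome 9 between 20686415 and 26888657 and held 25 coding genes, among them MTAP, which salvages methionine, and the type I interferon genes. Of 988 peak-free intervals over 0.5 Mb with less than 1% unknown bases, it was number 2 by length. The peaks do not show where the deletion ends, because silent genes also lack peaks.

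The promoters of CDKN2A and CDKN2B are as rich in G+C as many that carry the mark. That of CDKN2A held 69.0% G+C and 2 GC boxes, and that of CDKN2B 67.3% and 2. Of the 6424 coding promoters at least as rich as that of CDKN2A, 63.6% (exact 95% interval 62.4 to 64.8) had a peak in all lists and 26.9% in none.

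**Figure D5:**
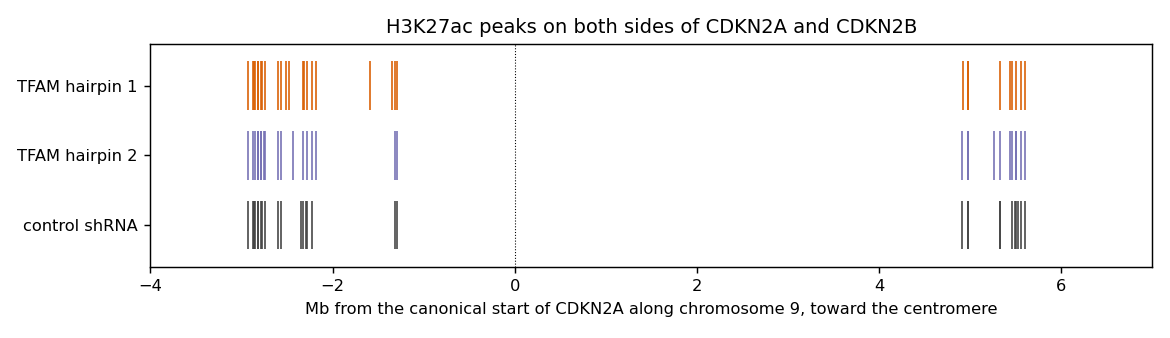
Peaks of each list on chromosome 9, as distance in Mb from the canonical start of CDKN2A (dotted line), with 1 vertical line per peak. The interval with no peak lies between the same genes in the 3 libraries and is 6.21, 6.20 and 6.20 Mb long in hairpin 1, hairpin 2 and the control.

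Most other genes of the cell cycle kept their promoter peaks. Of 19 genes of the G1/S kinases, cyclin E and the RB-E2F axis, 18 had one in all lists, against 50.3% of all coding genes, with 0 gained and 0 lost. CDK6, a partner of D-type cyclins, was covered for 11917 bp in hairpin 1, 9865 bp in hairpin 2 and 12492 bp in the control. E2F3, an activating E2F factor, had 19529, 20119 and 25913 bp and was the gene with a promoter peak in hairpin 1 alone. The other E2F genes were added here after their values were seen. Of these, E2F1, E2F2 and E2F4 had more in both hairpins, whereas E2F5, E2F7 and E2F8 had less. E2F1 had 11375 bp in hairpin 1, 13860 bp in hairpin 2 and 7740 bp in the control, E2F2 had 11737, 11984 and 5313 bp, and E2F4, a repressive member, had 11005, 13955 and 7462 bp. Among the 19 genes, only the windows of E2F2 and E2F4 held a gained region, 1 each, against 12.7% of windows of all coding genes. A lost region lay in those of CCNE2, E2F8 and TFDP2, 1 each, against 10.7%. E2F5 had 3305 bp in hairpin 1, 2960 bp in hairpin 2 and 3718 bp in the control. E2F7 had 1954, 2115 and 2456 bp, and E2F8 had 4124, 3655 and 4501 bp with 1 lost region in its window. E2F6 had 1995, 2412 and 1998 bp. The median window ratio of the 19 genes was 0.954 in hairpin 1 and 0.989 in hairpin 2, against 1.06 and 1.16 over all coding genes.

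All 14 genes of S, G2 and M phase had a promoter peak in every list, against 50.3% of all coding genes. Their median window ratios were 0.969 in hairpin 1 and 1.03 in hairpin 2, against 1.06 and 1.16 over all coding genes. Among the 14 genes, WEE1, a kinase that holds CDK1 inactive, had 15503 bp in hairpin 1, 18007 bp in hairpin 2 and 17495 bp in the control. Its relative PKMYT1 had 15094, 8995 and 10651 bp. Of 10 genes of the CDK-activating kinase and of p27 and p21 turnover, 9 had the peak in every list, against the same 50.3%. Their median ratios were 0.897 and 1.11. CKS1B, a cofactor in the degradation of p27, was the exception, with no promoter peak in hairpin 2, and its window held 23483, 19995 and 21573 bp. DDB1, an adaptor of the CUL4 ubiquitin ligase, had 19426, 18949 and 15904 bp.

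Of 14 regulators of inhibitor and D-type cyclin transcription, 9 had a promoter peak in all lists, against 50.3% of all coding genes. Another 2 had one in both hairpins and not in the control, against 1.53%, and 0 in the control alone, against 0.829%. Those with one in both hairpins only were FOXO1 and FOXO4, forkhead factors that activate CDKN1B and repress D-type cyclins. FOXO1 was covered for 4251 bp in hairpin 1, 5396 bp in hairpin 2 and 1325 bp in the control, and FOXO4 for 6849, 9678 and 6312 bp. By the rule for regions, the FOXO4 window held 1 gained region and the FOXO1 window 0. GSK3B held the other gained region of this list, against 12.7% of windows of all coding genes with 1 or more. FOXO3, a further forkhead factor of this list, went the other way and had a promoter peak in every list. Its window was covered for 10497 bp in hairpin 1, 13957 bp in hairpin 2 and 15290 bp in the control, with 2 lost regions. The EZH2 window held 1 lost region, against 10.7% of windows of all coding genes with 1 or more. Of 13 genes around the 9p21 deletion, CDKN2A and CDKN2B included, 12 had no promoter peak in any list. All 12 lie inside the peak-free interval described above, so this count was fixed by that interval and adds nothing to it. FOCAD kept its own, with 4360 bp in hairpin 1, 3262 bp in hairpin 2 and 5039 bp in the control, and HACD4, its neighbour, had 0 bp in each.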

How the data were processed

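H3K27ac peak lists of 3 K562 libraries were used, 1 each for TFAM hairpin 1, TFAM hairpin 2 and the control shRNA, grouped by the sample titles. Per the labels' protocols, reads that matched a single place in hg19 were kept. The tools were Bowtie 0.12.7 and Picard, per the submitters' processing notes, which give no roles. Each deposited list gives a start, an end and a score per peak, the authors' own value (50 or more), used here to rank peaks within a list. The peak names carry a MACS prefix, per the files; its version, threshold and use of input, and the depth, are not given in the sources used here. Input DNA was not analysed here.

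Genes came from GENCODE release 44 on GRCh37, with 20149 protein-coding genes, and all peaks lay inside its chromosomes. The start was that of the canonical transcript, or the 5′ end of the gene. Covered sequence was summed within each gene body and 25 kb on each side. Positions are 1-based. The promoter sequence of 1 member is not reported here. The call threshold was a fold of 1.5. Intervals printed beside percentages are exact Clopper-Pearson 95% intervals for counting error, and the other percentages are given without one. Overlap calls were tested on simulated data from 23413 control peaks, with 200 regions removed and 200 added, and were exact in 5 of 5 runs. Both simulated hairpin lists were the same copy with no shifted peaks. The runs therefore checked the counting and not calls on lists that differ as the real ones do. The members and the gene lists were chosen with earlier results of these data known. All members were named, and of each other list those with a gained or lost promoter or, failing that, the 2 with the most control coverage. The other E2F genes, FOXO3 and genes named only for a gained or lost region in their window fell outside this rule. Alternatives were the higher-scoring 50% of peaks, equal list lengths, a 50% overlap, merging within 1 kb, windows of 0, 10 and 50 kb, promoters of 2.5 kb and all starts. The work was done in Python 3.11.15 with SciPy 1.17.1, pandas 2.3.3, numpy 2.4.6 and, for the plots, matplotlib 3.10.9.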

Additional observations from a re-analysis of the deposited data

How the results depend on the processing

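Of 57 recomputed values, 48 were close to the reported one (a count within 1.5 times, or a ratio within 1.5 times and on the same side of 1). Restricted to the higher-scoring 50% of peaks, the gained regions numbered 3 in place of 0, the genes with a promoter peak in all lists 2 in place of 7, and the hairpin 1 ratio of covered sequence was 1.02 in place of 0.847. With 50 kb windows 1 region was gained. The following alternatives were chosen after seeing the data. With hairpin 2 alone against the control, 3 regions were gained and 6 lost. The hairpin 2 ratio was 1.10 without CCND3 and 1.05 with peaks up to 5 kb wide, in place of 0.888. With that limit on width 4 genes had a promoter peak in all lists. The cause of these shifts was not tested. The windows of CDKN2A and CDKN2B held 0 peaks under all 6 alternatives run for them. These 6 of the 48 close values were fixed in advance, since the windows reached 50 kb at most. The nearest peak lay 1288 kb from the CDKN2A start. Each alternative run for the count of lost regions gave 2 or more, but not always the same ones. A limit of 5 kb excludes both lost CCND3 peaks (6624 and 6243 bp). The higher-scoring 50% excludes the peak at the CCND3 promoter (score percentile 49.2). Without CCND3, which was not an alternative for this count, 1 region was lost. No paired analysis was possible because each group has 1 library. Without read depths, the absence of a peak does not show that sequence was unmarked.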
